A study of Mus musculus with 8 samples.

Results

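The genes of the proteasome were followed in mouse fetal liver myeloid progenitors that carried a Trim27 virus or a GFP control virus. Members were the gene symbols of the count table that start with Psma, Psmb, Psmc, Psmd, Psme, Psmf or Psmg followed by a number and that had at least 100 counts over the 8 libraries. These were 48 of the 33435 named genes of the table, and 52 symbols matched the pattern. The 4 left out were Psmb11 and Psmb7-ps2, both at 0 counts, Psmb5-ps with 3 and Psmb6-ps with 19, and the member nearest to the limit was Psmd10 with 272 counts over the 8 libraries. Of the 48 members, 46 encode subunits, assembly chaperones, activators or the inhibitor of the proteasome. The other two matched by name only. Psmc3ip encodes a cofactor of meiotic recombination, and Psme2b is a near-identical copy of the activator gene Psme2. Among the immunoproteasome genes, Psmb8 and Psmb10 were analysed here.

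The cells were hematopoietic stem and progenitor cells of C57BL/6J fetal livers at stage E14.5, infected with one of the 2 viruses and then sorted as myeloid progenitors. There were 4 libraries of the Trim27 group and 4 of the GFP group, which the series' design text describes as empty vector controls. Cells of both groups were infected, and the labels used here give neither the viral promoter nor how many embryos were pooled. They also do not say whether libraries came from separate cultures, so the p-values reflect only how far these libraries spread, which may be technical. GFP libraries held 9257889 to 10747794 counts each, and Trim27 libraries 10551137 to 16366571. The Trim27 gene itself stood at 171 to 191 CPM (counts scaled to a common library size) with the GFP virus and at 268 to 311 CPM with the Trim27 virus, so the groups did not overlap. All 10 myeloid progenitor markers looked up had counts, Kit, Cd34 and Mpo among them.

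The proteasome degrades proteins tagged with ubiquitin. Its 20S core is a barrel of alpha rings around beta rings, and the beta subunits Psmb5, Psmb6 and Psmb7 hold the active sites. The 19S regulatory particle caps the barrel, and in it a base of ATPases unfolds the substrate while a lid removes the ubiquitin. In blood cells and under interferon, immunoproteasome subunits take the place of the constitutive catalytic ones and change which peptides are made for MHC class I. Activators of the PA28 and PA200 families can cap the barrel in place of the 19S particle. The transcription factor Nrf1, the product of Nfe2l1, raises proteasome genes together when proteasome activity is short. TRIM27 itself belongs to a family of RING-type ubiquitin ligases.

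Proteasome genes did not move as 1 block. With the Trim27 virus, 12 of 15 constitutive genes of the 20S core, all 4 of its assembly chaperones and both immunoproteasome genes fell, 6 of 17 genes of the 19S particle rose and 7 fell, and 3 of 4 activator genes rose. Of the 48 members, all of which were abundant enough to be tested, 12 rose, 29 fell and 7 did not pass an adjusted p of 0.05, where edgeR (quasi-likelihood test, Benjamini-Hochberg adjustment) was run over all 11040 genes abundant enough to test. Such calls were common in this comparison, since 85.5% of all tested genes passed, 47.5% rose and 38.0% fell. The median log2 fold change was -0.26 over the members and 0.14 over all tested genes. Members were abundant genes, and abundant genes fell more often. At a mean of 6 log2 CPM or more, 8 of 41 members rose and 27 fell (65.9%), beside 30.7% and 56.3% of the 2644 genes of that abundance (87.1% in either direction), so the share that fell was near that of other abundant genes. The median was -0.33 for those members and -0.23 for those genes. The groups did not overlap for 10 members that were higher and 28 that were lower in the Trim27 libraries, beside 45.3% and 35.4% of all tested genes (80.7% in either direction). A rise of over 2-fold was found for 3 members, beside 31.3% of all tested genes, and a fall of over 2-fold for 5 members, beside 16.0%. A test for a fold above 1.5 (glmTreat) left 5 members that rose and 13 that fell, beside 57.5% of all tested genes called by it in either direction. The 12, 10, 3 and 5 members counted here as rising or higher each include Psmd10. Psmd10 met the count limit for members through the Trim27 libraries alone. A rise was thus built into its selection, and it does not inform these counts. With library size as the only scaling, which moved the median of all tested genes from 0.14 to 0.44, 22 members rose and 21 fell, beside 56.9% and 28.1% of all tested genes. A second kind of alternative took out, library by library, the trend of counts on transcript length, fitted over all genes or over abundant genes only (the abundant-gene length trend), and it moved that median to -0.08 and 0.36. In bulk RNA, fewer cells of a type and less RNA per cell cannot be told apart.

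**Figure D1:**
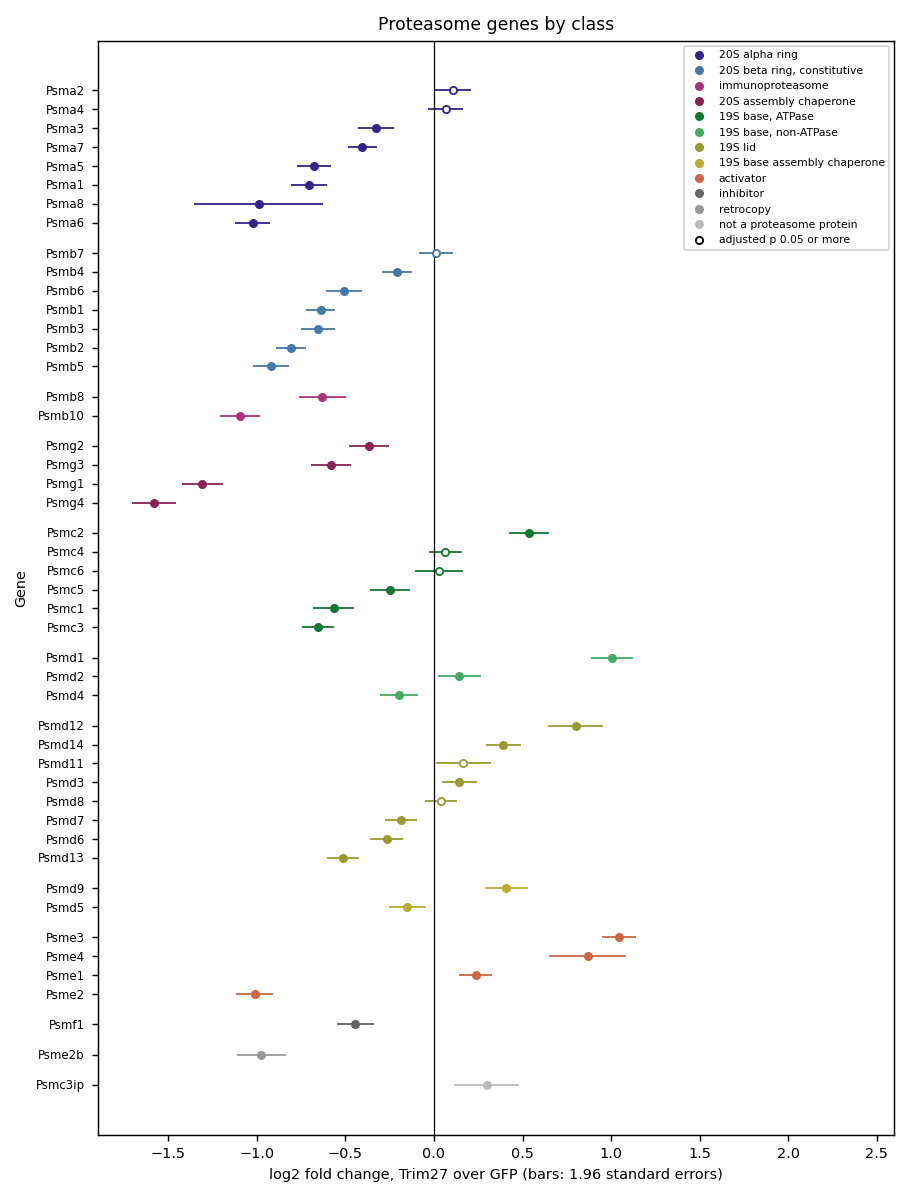
Log2 fold change of 47 members, Trim27 over GFP, grouped by class and coloured by it, with bars for the 95% interval from the standard error and open points for genes that did not pass the threshold. Psmd10, with few counts in the GFP group, is not drawn. The 20S alpha and beta genes lie at or below 0 apart from Psma2 and Psma4 just above it, the 19S classes lie on both sides, and Psmd1 and Psme3 lie near 1.

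In the 20S core, 12 of 15 constitutive genes fell, 0 rose and 3 did not pass, with a median log2 fold change of -0.64. The 15 genes called constitutive in all these counts and sums include Psma8, which is not constitutive. A filter at 10 CPM, which leaves Psma8 out, gave a median of -0.56. The alpha subunits form the outer rings and the gate of the barrel. Of 8 alpha genes, 6 fell, led by Psma6 (-1.02), Psma8 (-0.99), Psma1 (-0.70) and Psma5 (-0.68), followed by Psma7 (-0.40) and Psma3 (-0.33). Psma6 had the largest fall of the ring. Psma6 was at 586, 658, 627 and 612 CPM in GFP replicates 1 to 4 and at 329.6, 289, 298 and 306 CPM in Trim27 replicates 1 to 4 (log2 fold change -1.02, SE 0.05, adjusted p = 2.3e-17). Every Trim27 library lay below every GFP library. Psma7, the most abundant alpha gene, went from 999.7 ± 11.0 CPM with the GFP virus to 755 ± 12.2 CPM with the Trim27 virus (SD, 4 libraries each). Psma8, the germ cell counterpart of Psma7, was rare, with 11.4 ± 2.38 CPM with the GFP virus and 5.79 ± 1.31 CPM with the Trim27 virus. Psma2 (0.11, adjusted p = 0.0549) and Psma4 (0.07, adjusted p = 0.214) did not pass. The call of Psma2 depended on the setting. It passed as a rise under library size alone (0.41), DESeq2 size factors (0.13), upper-quartile factors (0.16), no filter (0.14), a filter at 10 CPM (0.12), DESeq2's Wald test (0.14), limma-voom (0.11) and without GFP replicate 2 (0.14), and as a fall with the length trend removed (-0.41). Psma4 passed as a rise under library size alone (0.37), under upper-quartile factors (0.11) and again once the length trend (0.15) or the abundant-gene length trend (0.42) was removed. Psma3 lost its call under library size alone (-0.023), and Psma7 lost its call, at 0.015, with the abundant-gene length trend removed.

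The beta ring holds the proteolytic sites. Of its 7 constitutive genes, 6 fell and Psmb7 did not pass. The structural subunits Psmb2 (-0.81), Psmb3 (-0.65), Psmb1 (-0.64) and Psmb4 (-0.21) all fell, although Psmb4 was higher under library size alone (0.093) and once the abundant-gene length trend was removed (0.13), and Psmb3 lost its call in the latter (-0.044). Psmb4 had the highest CPM of all members, with 1472 ± 24.0 CPM with the GFP virus and 1272 ± 51.4 CPM with the Trim27 virus. Psmb2 went from 1069 ± 8.33 CPM with the GFP virus to 611 ± 11.7 CPM with the Trim27 virus (SD, 4 libraries each). The SD within a group was small beside the mean for these genes. Psmb1 was at 1307 ± 23.9 CPM with the GFP virus and at 839 ± 14.3 CPM with the Trim27 virus. Psmb3 was at 269 ± 0.656 CPM with the GFP virus, the smallest SD among these structural genes, and at 171 ± 6.94 CPM with the Trim27 virus.

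The 3 constitutive catalytic genes behaved unequally. Psmb5 encodes the chymotrypsin-like subunit. Psmb5 was at 523, 489, 472 and 487 CPM in GFP replicates 1 to 4 and at 245, 283, 266 and 248 CPM in Trim27 replicates 1 to 4 (log2 fold change -0.92, SE 0.05, adjusted p = 5e-16). Every Trim27 library lay below every GFP library. Psmb6 encodes the caspase-like subunit. Psmb6 was at 521, 472, 508 and 489 CPM in GFP replicates 1 to 4 and at 315, 374, 361 and 349 CPM in Trim27 replicates 1 to 4 (log2 fold change -0.51, SE 0.05, adjusted p = 3.5e-10). All Trim27 libraries were below all GFP libraries, but with the abundant-gene length trend removed the log2 fold change was 0.073 (adjusted p = 0.152). Psmb7 encodes the trypsin-like subunit. Psmb7 was at 267, 283, 266 and 276 CPM in GFP replicates 1 to 4 and at 287, 273, 272 and 266 CPM in Trim27 replicates 1 to 4 (log2 fold change 0.01, SE 0.05, adjusted p = 0.832). The groups overlapped, and the 95% interval of its log2 fold change was -0.08 to 0.11. It passed as a rise under library size alone (0.32) and again with the abundant-gene length trend removed (0.37). Psmb7 overlaps exons of Nek6 on the opposite strand, and the strand setting of the counting is not given in the sources used here.

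Both immunoproteasome genes fell. Psmb8 replaces Psmb5 in the immunoproteasome. Psmb8 was at 133, 119, 124 and 123 CPM in GFP replicates 1 to 4 and at 70.6, 80.5, 91.0 and 80.5 CPM in Trim27 replicates 1 to 4 (log2 fold change -0.63, SE 0.07, adjusted p = 7.3e-10). The groups did not overlap. Psmb10 replaces Psmb7. Psmb10 was at 462, 376, 434 and 405 CPM in GFP replicates 1 to 4 and at 181, 209.7, 199 and 195 CPM in Trim27 replicates 1 to 4 (log2 fold change -1.10, SE 0.06, adjusted p = 3.2e-16). Again the groups did not overlap, and the lowest GFP library was at 376 CPM against 209.7 CPM in the highest Trim27 library. Per kilobase of transcript, Psmb8 stood at 76.7 CPM per kb beside 648 for Psmb5 in the GFP group, while Psmb10 stood at 319.8 beside 235 for Psmb7. In the Trim27 group the same levels were 49.5, 343, 149 and 237 CPM per kb. The order within the Psmb10 and Psmb7 pair was thus turned between the groups.

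The ratio of an immunoproteasome gene to the gene it replaces does not depend on the scaling of libraries. The log2 ratio of Psmb8 to Psmb5 counts was -1.97, -2.04, -1.92 and -1.99 for GFP replicates 1 to 4 and -1.80, -1.81, -1.55 and -1.62 for Trim27 replicates 1 to 4. Psmb5 fell more than Psmb8, and the ratio was higher in the Trim27 group by 0.29 (2-sided exact permutation test, p = 0.0286, the smallest that 4 against 4 can give, and the same after adjustment over the 2 ratios). Without GFP replicate 2 the difference was 0.27 with an exact permutation p = 0.0571. The log2 ratio of Psmb10 to Psmb7 counts was 0.79, 0.41, 0.71 and 0.56 for GFP replicates 1 to 4 and -0.67, -0.38, -0.45 and -0.45 for Trim27 replicates 1 to 4. Every Trim27 library was below 0 and every GFP library above it, and the Trim27 mean minus the GFP mean was -1.11 (2-sided exact permutation test, p = 0.0286, adjusted p = 0.0286). The 2 ratios thus differed in opposite directions. The transcripts of Psmb10 (1311 bases) and Psmb7 (1160.0 bases) are close in length, while that of Psmb8 (1628 bases) is longer than that of Psmb5 (760.5 bases). Among abundant genes under 1000 bases, where Psmb5 lies, the median log2 fold change was -0.70. It was -0.06 among abundant genes in the length class of Psmb8. The first ratio differed in the same direction as these medians, and the part of length in it was not tested.

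Markers of other cells differed between the groups as well, and their part in the immunoproteasome values was not tested. All 8 B cell markers had counts and summed to 54.4 to 135 CPM across GFP libraries and 38.5 to 52.6 CPM across Trim27 libraries. The 5 of 6 T and NK cell markers with counts summed to 28.5 to 30.3 and 2.21 to 3.23 CPM, nearly all of it from Lck, whose mean was 28.9 CPM with the GFP virus and 2.16 with the Trim27 virus, with Ncr1 at 0. The 6 of 10 macrophage and dendritic cell markers with counts summed to 40.5 to 49.0 and 58.8 to 68.3 CPM, with C1qa, Mrc1, Marco and Cd163 at 0. Of the 5 tested, 4 rose, led in level by H2-Ab1 (0.59), and Cd74 fell (-2.48). All 6 erythroid markers had counts and summed to 1626 to 1694 and 1100.1 to 1307 CPM, with 4 that fell, led in level by Klf1, and 2 that rose, Gata1 (0.91) and Alas2 (2.06). The 10 myeloid progenitor markers summed to 2036 to 2152 and 2251 to 2488 CPM, but 7 of them fell, among them Cd34 (-1.05), Prtn3 (-0.75) and Kit (-0.60), and 2 rose, Spi1 (0.83) and Csf2rb (1.34). The higher sum came from Csf2rb, at a mean of 472 and 1193 CPM. Of 7 hepatocyte markers all but Afp were at 0, and of 6 endothelial and stromal markers all but Col1a1 were at 0.

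**Figure D2:**
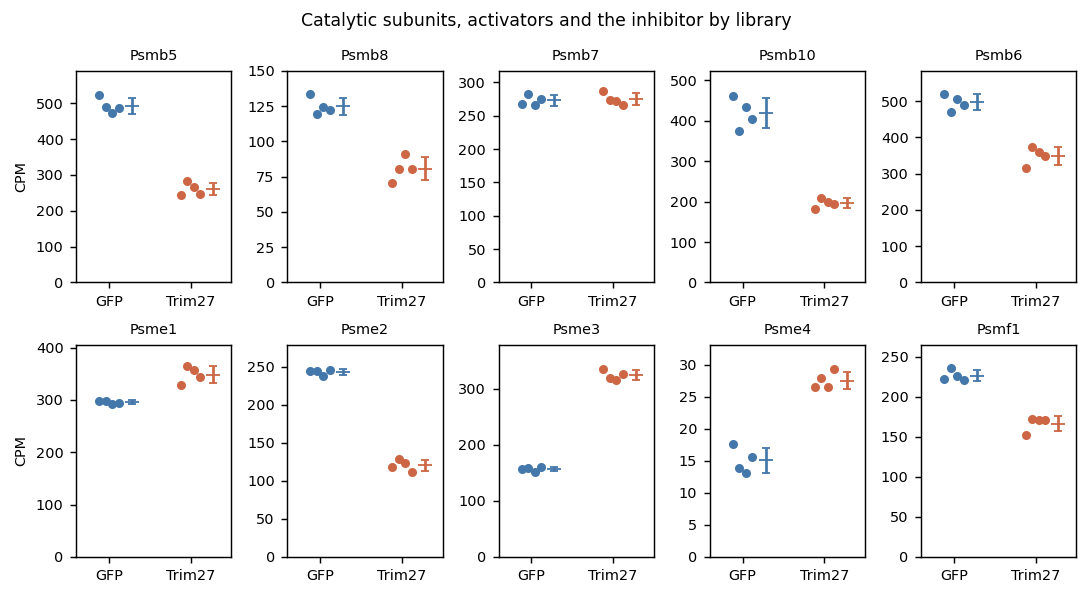
CPM of the 5 catalytic genes analysed, the 4 activator genes and the inhibitor gene Psmf1 in each library, with the mean and SD of each group to the right of its 4 points and every axis starting at 0. Psmb5, Psmb8, Psmb10, Psmb6, Psme2 and Psmf1 are lower in all Trim27 libraries, Psme1, Psme3 and Psme4 are higher in all of them, and Psmb7 overlaps between the groups.

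Promoter letters were read for the members because Nrf1 acts on proteasome genes through antioxidant response elements. RefSeq promoters of build GRCm38.p6 were found for 40 members, as 43 promoters, and the 250 bases before each start were searched on both strands. The letters TGACNNNGC were present in 5 member promoters (11.6%), against 10.2% of all 32851 RefSeq promoters, so the share was near that of promoters in general. They are shown for these 5 members, with the element in capitals, because the set holds genes that fell, rose and did not pass. The gamma-activated site TTCNNNGAA, known from interferon signalling, is shown for Psmb8 and was present in 4.65% of member promoters and 7.02% of all. Every sequence is written 5′ to 3′ on the strand of the gene.
Psmb5, chr14:54618019-54618057, - strand: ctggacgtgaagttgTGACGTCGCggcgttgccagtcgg
Psmb6, chr11:70525333-70525356, + strand: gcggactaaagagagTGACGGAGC
Psmc6, chr14:45329582-45329620, + strand: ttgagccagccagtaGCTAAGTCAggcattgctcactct
Psmd12, chr11:107479278-107479304, + strand: tctGCTGTGTCAcatttgcccccctca
Psmd9, chr5:123228144-123228182, + strand: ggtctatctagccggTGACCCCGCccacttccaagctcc
Psmb8, chr17:34198083-34198121, + strand: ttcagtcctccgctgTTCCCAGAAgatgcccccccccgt
Of these genes, Psmb5, Psmb6 and Psmb8 fell, Psmd12 and Psmd9 rose and Psmc6 did not pass. In Psmc6 and Psmd12 the element stands on the opposite strand and begins 227 and 247 bases before the start, while in Psmb5, Psmd9 and Psmb6 it begins 47, 31 and 9 bases before it. The interferon-stimulated response element, searched as GAAA, any 2 bases and GAAA, was found in the promoters of Psmb3, Psmd4 and Psmd9 (6.98% of member promoters and 2.98% of all), and CCAAT in 30.2% of member promoters and 33.8% of all. A match describes letters and not binding.

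The 4 genes of the 20S assembly chaperones all fell, with a median log2 fold change of -0.94. These small proteins guide the alpha ring together as pairs, Psmg1 with Psmg2 and Psmg3 with Psmg4. The transcripts of Psmg1, Psmg3 and Psmg4 are under 1000 bases. Of all abundant genes that short, 84.9% fell, with a median of -0.70, so a fall was common among such genes. Psmg4 was at 168, 167, 167 and 152 CPM in GFP replicates 1 to 4 and at 48.4, 56.6, 56.2 and 57.4 CPM in Trim27 replicates 1 to 4 (log2 fold change -1.58, SE 0.06, adjusted p = 2.1e-19). It had the largest fall among all members, and the highest Trim27 library lay far below the lowest GFP library. Psmg1 was at 164, 162, 161 and 159 CPM in GFP replicates 1 to 4 and at 66.6, 63.4, 70.02 and 60.3 CPM in Trim27 replicates 1 to 4 (log2 fold change -1.31, SE 0.06, adjusted p = 2.5e-18). The groups were again apart. Their partners fell less, Psmg2 (-0.37) with means of 281 and 218 CPM and Psmg3 (-0.58) from 173 ± 7.35 CPM with the GFP virus to 115 ± 8.71 CPM with the Trim27 virus (SD, 4 libraries each). Psmg2 (-0.019) and Psmg3 (-0.0092) lost their calls with the abundant-gene length trend removed, and Psmg2 also under library size alone (-0.062), whereas Psmg1 and Psmg4 kept theirs in every setting tried. Pomp, the maturation factor that completes the core, lies outside the naming pattern. Pomp was at 142, 128, 119 and 125 CPM in GFP replicates 1 to 4 and at 84.4, 78.1, 83.2 and 73.2 CPM in Trim27 replicates 1 to 4 (log2 fold change -0.69, SE 0.06, adjusted p = 4.5e-11). Its groups did not overlap.

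The 19S regulatory particle went both ways. Of its 17 genes, 6 rose, 7 fell and 4 did not pass, and the median log2 fold change was 0.04. That median was -0.23 with the length trend removed and 0.34 under library size alone. Among the 6 ATPases of the base, which unfold the substrate, Psmc2 rose (0.54), Psmc3 (-0.66), Psmc1 (-0.57) and Psmc5 (-0.25) fell, and Psmc4 (0.06) and Psmc6 (0.03) did not pass. Psmc2 went from 86.6 ± 4.30 CPM with the GFP virus to 126 ± 1.28 CPM with the Trim27 virus, and Psmc3, the most abundant of them, from 707 ± 15.9 CPM with the GFP virus to 449 ± 17.0 CPM with the Trim27 virus (SD, 4 libraries each). The fall of Psmc5 was lost under library size alone (0.053) and again with the abundant-gene length trend removed (0.036). Psmc4 passed as a rise under both of these settings (0.37 and 0.34) and under upper-quartile factors (0.11). Psmc6 passed as a rise in the first (0.33) and as a fall with the full length trend removed (-0.32). Psmc3 overlaps exons of Slc39a13 on the opposite strand.

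The non-ATPase subunits of the base form its scaffold and bind ubiquitin. Psmd1, the large scaffold that docks the ubiquitin receptor Adrm1, had the second largest rise among members at a mean of 4 log2 CPM or more. Psmd1 was at 56.4, 59.1, 58.1 and 56.3 CPM in GFP replicates 1 to 4 and at 117, 113, 116 and 115 CPM in Trim27 replicates 1 to 4 (log2 fold change 1.01, SE 0.06, adjusted p = 1.6e-15). Every Trim27 library lay above every GFP library. Psmd2, the scaffold that binds shuttle factors, rose by little (0.14, adjusted p = 0.0311), and the call was lost without GFP replicate 3, GFP replicate 4, Trim27 replicate 2 or Trim27 replicate 3 (0.087 to 0.19 over the 8 fits that leave out 1 library). Psmd2 was lower with the length trend removed (-0.37). Psmd4, a ubiquitin receptor, fell (-0.20) but not under library size alone (0.11) or with the abundant-gene length trend removed (0.081). Adrm1, the other ubiquitin receptor of the base, lies outside the naming pattern. Adrm1 was at 586, 581, 598 and 612 CPM in GFP replicates 1 to 4 and at 393, 428, 414 and 408 CPM in Trim27 replicates 1 to 4 (log2 fold change -0.53, SE 0.05, adjusted p = 6.5e-12). All Trim27 libraries were lower.

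Of the 8 lid genes, 3 rose, 3 fell and 2 did not pass. Psmd12 (0.80), Psmd14 (0.39), which encodes the enzyme that cuts ubiquitin chains from the substrate, and Psmd3 (0.14, adjusted p = 0.0109) rose. Psmd12 went from 45.5 ± 5.59 CPM with the GFP virus to 79.5 ± 5.51 CPM with the Trim27 virus, and Psmd14 from 217 ± 6.27 CPM with the GFP virus to 285 ± 15.1 CPM with the Trim27 virus (SD, 4 libraries each). The rise of Psmd3 was small, its groups overlapped, the call was lost without GFP replicate 2 or Trim27 replicate 2, 3 or 4 (0.087 to 0.17 over the 8 fits), and it was lower with the length trend removed (-0.17). Psmd13 (-0.51), Psmd6 (-0.27) and Psmd7 (-0.19) fell. Under library size alone Psmd6 was at 0.036 and Psmd7 at 0.12, and both lost their calls with the abundant-gene length trend removed (-0.0084 and -0.017). Psmd8 (0.04) and Psmd11 (0.17) did not pass. Psmd8 was called as a rise under library size alone (0.34) and with the abundant-gene length trend removed (0.24), and was at -0.091 with the length trend removed. Psmd11 was called as a rise in some alternatives, namely under the DESeq2 (0.19) and upper-quartile (0.21) factors, library size alone (0.47), no filter (0.20), a filter at 10 CPM (0.18), DESeq2's Wald test (0.20), limma-voom (0.18), halved counts (0.17), the abundant-gene length trend removed (0.23) and without GFP replicate 3 (0.24), and as a fall with the length trend removed (-0.18). In the others it was not called. Psmd13 overlaps exons of Sirt3 on the opposite strand. Of the 3 chaperones that assemble the base, Psmd9 rose (0.41, but -0.06 with the length trend removed), and Psmd5 fell (-0.15, but 0.15 under library size alone, and with no call by DESeq2's Wald test). Psmd10 encodes gankyrin, a base chaperone also known for binding the retinoblastoma protein. It had 6 counts in GFP replicate 1, 0 in GFP replicates 2 to 4, and 71, 75, 59 and 61 for Trim27 replicates 1 to 4. It thus passed the limit of 100 counts through the Trim27 group alone. Its fitted log2 fold change of 4.61 (SE 0.53) rested on the 6 counts of GFP replicate 1, since the other GFP libraries held none, and no fold is given without that library. Among counts of 1 to 10, 64.7% to 72.0% were even in these libraries, and Psmd10 also rose with all counts halved and rounded up.

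The difference between core and cap was visible in the summed levels. The 15 constitutive core genes summed to 9176 ± 99.5 CPM with the GFP virus and 6563 ± 58.3 CPM with the Trim27 virus, and the 17 genes of the 19S particle to 4773 ± 10.6 and 4447 ± 87.5 CPM (SD, 4 libraries each). The log2 ratio of summed CPM was -0.48 for the core and -0.10 for the 19S particle, beside -0.38 for all 2644 genes at 6 log2 CPM or more. The core was thus nearer to that of other abundant genes than the 19S particle was. The direction of the 19S sum depended on scaling. As a share of all counts, the 19S genes took 0.425% to 0.432% across GFP libraries and 0.489% to 0.501% across Trim27 libraries. The core genes took 0.809% to 0.838% and 0.718% to 0.745%. The ratio of the 19S sum to the 20S sum, which is free of library scaling, was 0.525, 0.514, 0.521 and 0.521 for GFP replicates 1 to 4 and 0.658, 0.686, 0.699 and 0.668 for Trim27 replicates 1 to 4. The ratio was higher in each Trim27 library than in any GFP library and is given as a description, without a test. Core transcripts were shorter, with a median length of 1160.0 bases beside 1591 for the 19S genes. The 48 members together took 1.48% to 1.51% of all counts across GFP libraries and 1.45% to 1.47% across Trim27 libraries.

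**Figure D3:**
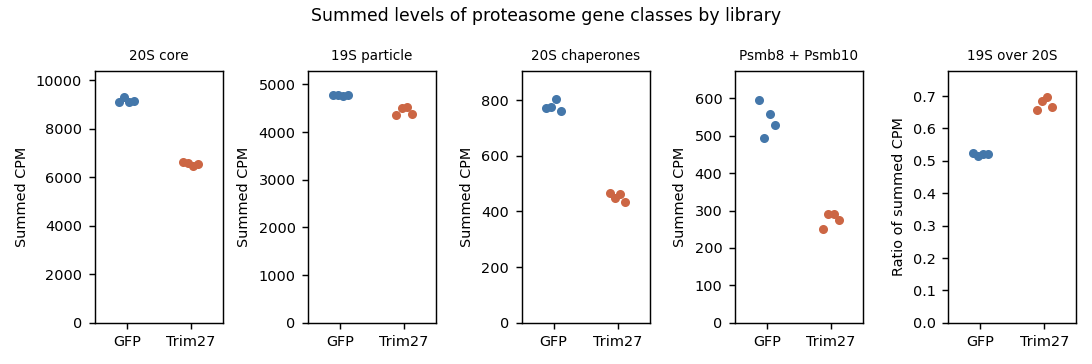
Summed CPM of the constitutive 20S core genes, the 19S particle genes, the 20S assembly chaperone genes and the 2 immunoproteasome genes, and the ratio of the 19S to the 20S sum, in each of the 4 GFP and 4 Trim27 libraries, with every axis starting at 0. The groups are apart in all 5 panels, with the 19S sum differing least and the ratio higher in the Trim27 libraries. The 19S genes are lower in the Trim27 libraries on this scale but higher there as a share of all counts.

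The activators split within 1 complex. Psme1 and Psme2 encode the alpha and beta chains of PA28, which assemble into a mixed ring that caps the core and is raised by interferon gamma. Psme1 was at 299, 298, 293 and 294 CPM in GFP replicates 1 to 4 and at 328, 365, 357 and 344 CPM in Trim27 replicates 1 to 4 (log2 fold change 0.24, SE 0.05, adjusted p = 4.7e-05). Psme2 was at 244, 244, 237 and 245 CPM in GFP replicates 1 to 4 and at 118, 128, 123 and 112 CPM in Trim27 replicates 1 to 4 (log2 fold change -1.01, SE 0.05, adjusted p = 7e-17). Psme1 was thus higher and Psme2 lower in every Trim27 library than in any GFP library. The ratio of Psme2 to Psme1 CPM was 0.817, 0.818, 0.810 and 0.835 for GFP replicates 1 to 4 and 0.359, 0.352, 0.344 and 0.325 for Trim27 replicates 1 to 4, a pair of genes set side by side after their values were seen and therefore not tested. Psme1 overlaps exons of Emc9 on the opposite strand. Emc9 had 2925 counts over the 8 libraries and a log2 fold change of -1.40, opposite to that of Psme1. Psme2 shares 99.4% of 794 aligned bases with Psme2b, so reads may be divided between them, and Psme2b fell by a like amount (-0.97).

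Psme3, which encodes the nuclear PA28 gamma chain that acts without ubiquitin, had the largest rise among members at that abundance. Psme3 was at 158, 159, 152 and 160.0 CPM in GFP replicates 1 to 4 and at 335, 319.5, 316 and 327 CPM in Trim27 replicates 1 to 4 (log2 fold change 1.04, SE 0.05, adjusted p = 6.6e-18). The groups were far apart. Psme4 encodes PA200, an activator tied to histone turnover. Psme4 was at 17.6, 13.9, 13.2 and 15.5 CPM in GFP replicates 1 to 4 and at 26.5, 27.9, 26.5 and 29.3 CPM in Trim27 replicates 1 to 4 (log2 fold change 0.87, SE 0.11, adjusted p = 2.8e-08). The groups did not overlap, but the log2 fold change was 0.0051 (adjusted p = 0.967) with the length trend removed, Psme4 having the longest transcript of the members. Psmf1 encodes PI31, named as an inhibitor of the core. Psmf1 was at 222, 236, 226 and 221 CPM in GFP replicates 1 to 4 and at 152, 172, 170.5 and 171 CPM in Trim27 replicates 1 to 4 (log2 fold change -0.44, SE 0.05, adjusted p = 6e-09). All Trim27 libraries were below all GFP libraries. Psmc3ip, the member that is no proteasome gene, rose (0.30) and overlaps exons of Mlx on the opposite strand.

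Near-identical copies can divide the reads of a gene. Of the 48 members, 10 had an annotated copy elsewhere in the genome with at least 95% identity over at least 200 bases. The copy Gm13835 of Psma3 held 6570 counts over the GFP libraries and 9333 over the Trim27 libraries. Adding the counts of copies that are not members themselves changed no call, and Psma3 was then at -0.32 in place of -0.33 on the log2 scale. Psme2 and Psme2b, both members, were not added to each other, and the copy of Psmb5 had no counts to add. For these genes the sum could not differ from the member alone.

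Genes that act with the proteasome also went both ways. Of 11 proteasome proteins outside the naming pattern, 6 rose and 4 fell (median log2 fold change 0.37), beside 47.5% and 38.0% of all tested genes. The deubiquitinases that sit on the 19S particle, Usp14 (1.71) and Uchl5 (0.87), rose, as did Akirin2 (2.63), which brings proteasomes into the nucleus, and Zfand5 (1.72), while the small lid subunit Shfm1 (-1.05) and AI314180 (-1.29), the gene of the adaptor ECM29, fell. Akirin2 and Zfand5 lay below a mean of 4 log2 CPM, where 56.5% of all tested genes rose. Of 8 genes around Nrf1, 5 rose and 2 fell (median 0.61). All 8 lay below a mean of 6 log2 CPM, where rises were common. Among all tested genes 56.5% rose and 28.3% fell below 4 log2 CPM, and 47.4% rose and 38.0% fell from 4 to under 6. Nfe2l1 was at 40.7, 44.2, 44.1 and 46.8 CPM in GFP replicates 1 to 4 and at 48.3, 50.4, 51.5 and 46.3 CPM in Trim27 replicates 1 to 4 (log2 fold change 0.16, SE 0.08, adjusted p = 0.0496). Its groups overlapped, the call was lost in each fit without 1 library except the one without GFP replicate 4 (0.10 to 0.19), and it fell with the length trend removed (-0.42). Ngly1 (2.25) and Ddi2 (0.74, but -0.13 with the length trend removed), whose products process Nrf1, rose, as did the partner Mafk, from 1.23 ± 0.603 CPM with the GFP virus to 48.2 ± 3.77 CPM with the Trim27 virus (SD, 4 libraries each).

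Among genes for ubiquitin and its activation, Uba1, the main activating enzyme (1.08), rose, and Ubb (-0.62) and Rps27a (-1.16), which encodes ubiquitin fused to a ribosomal protein, fell. Of 10 tested shuttle and extraction factors, 4 rose and 5 fell (median -0.12), among them Vcp, the ATPase that extracts ubiquitinated proteins, which rose (0.25, but -0.28 with the length trend removed), and its cofactor Nploc4 (-0.68), which fell. Of 12 tested genes of MHC class I loading and its interferon control, 6 rose and 6 fell (median 0.09). For both lists the background was 47.5% of all tested genes that rose and 38.0% that fell. The peptide transporters Tap1 (1.16) and Tap2 (0.77, lost with the length trend removed) and the factor Irf1 (2.49) rose, and both chains of the interferon gamma receptor, Ifngr1 (-0.46, lost under library size alone) and Ifngr2 (-0.57), fell. Irf1 lay below a mean of 4 log2 CPM, where 56.5% of all tested genes rose. Tap1 and Tap2, neighbours of Psmb8 in the MHC region, thus rose where Psmb8 fell.

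Transcript length went with the direction of change in these libraries. Among genes at 6 log2 CPM or more, those under 1000 bases had a median log2 fold change of -0.70 and 84.9% of them fell, and at 2500 bases or more the median was 0.0016 and 41.6% fell. The members followed the same order. Of the 10 members under 1000 bases at that abundance, 9 fell and 1 rose, with a median of -0.86, and of the 7 at 2500 bases or more, 2 fell and 4 rose, with a median of 0.14. The 1 short member that rose was Psme1, at 711 bases beside 878 for Psme2. Over the 48 members, which share these libraries, the correlation of log2 fold change with length was 0.42 (Pearson, log2 length) and 0.61 (Spearman), given as a description. With the length trend of each library removed, 9 members rose and 34 fell, beside 39.8% and 43.97% of all tested genes. With the trend fitted on abundant genes only, 18 rose and 18 fell, beside 53.8% and 29.6% of all tested genes, so all genes shared in these shifts. Through all settings except the one that asks for a fold above 1.5, 25 members kept their direction and call, of which 8 rose and 17 fell. The 17 included Psmb5, Psmb8, Psmb10, Psma6, Psmg1, Psmg4, Psme2 and Psmf1, and the 8 included Psme1, Psme3, Psmd1, Psmd12, Psmd14 and Psmc2. Psmd10 is also among the 8, but a rise was built into its selection, since it met the count limit through the Trim27 libraries alone.

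**Figure D4:**
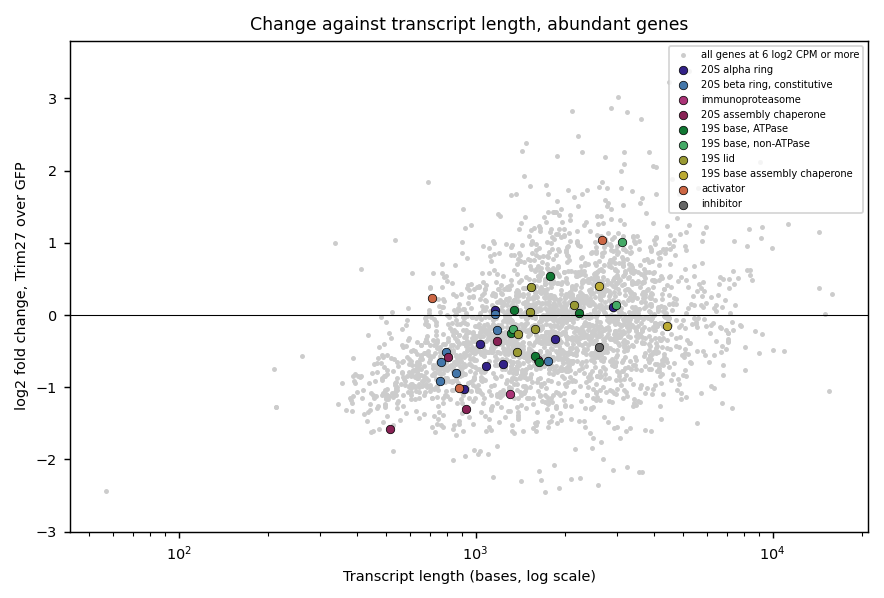
Log2 fold change, Trim27 over GFP, against transcript length on a log axis for the 41 members at 6 log2 CPM or more, coloured by class, over genes of that abundance in grey. Short genes lie mostly below 0, the 20S assembly chaperone genes sit at the short end, and Psme1 lies above 0 among the shortest.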

How the data were processed

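RNA-seq was run on 8 libraries, 4 of the GFP group and 4 of the Trim27 group, from polyA RNA and Nextera XT preparations, per the labels' protocols. Raw counts per gene symbol were deposited. Tools listed in the submitters' processing notes are bcl2fastq, HISAT2 and featureCounts, with NCBIM37 as the build. Annotation, strand setting and handling of multiply mapped reads: not given in the sources used here. In the deposited table was 1 line without a gene name, with 0 counts, which was left out.

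Counts were tested with edgeR 4.0.16 in R 4.3.3 (TMM factors, filterByExpr at its defaults, robust quasi-likelihood fit, 2-sided, no covariates), with Benjamini-Hochberg adjustment over the 11040 genes that passed the filter and a threshold of 0.05. CPM values are counts scaled to the TMM-adjusted library size. Fold changes are Trim27 over GFP on the log2 scale. The edgeR code was tested on simulated data. The 2 subunit ratios (pseudocount 0.5) were tested with exact permutation tests. Transcript lengths, copies and overlaps came from GENCODE M21 and promoters from RefSeq, both of a later build than the counts, so only promoter windows carry coordinates. Exact values per library were given for catalytic subunits, for the 3 largest rises and falls among members at 4 log2 CPM or more that passed, for activators, Psmf1, Nfe2l1, Pomp and Adrm1. Psma6, whose library values are also given, and the ratio of Psme2 to Psme1 were chosen after their values were seen. The members, gene lists and rules were chosen with earlier results of these data known. Alternatives were other scalings and filters, DESeq2 1.42.0, limma-voom (limma 3.58.1), a replicate block, a fold above 1.5, halved counts, removal of length trends and leaving out each library. Adding the counts of copies was chosen after seeing the data. Some genes of the wider pathway lists are not reported here.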

Additional observations from a re-analysis of the deposited data

Results flagged for a closer look

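In 8 of 102 groups of 4 libraries checked (48 members and 3 partner genes in 2 groups each), 1 library stood apart from the other 3 by Dixon's test at its 95% critical value, which chance gives in about 1 of 20 groups. Trim27 replicate 1 accounted for 4 of them. Psmc1 was at 169 CPM there against 144 to 147 CPM in the other Trim27 libraries, and Psmd14 at 308 CPM against 277 to 278 CPM. In the same library Psmf1 was at 152 CPM against 170.5 to 172 CPM, and Psmg4 at 48.4 CPM against 56.2 to 57.4 CPM. Among the GFP libraries, replicate 3 held Psmc4 at 374 CPM against 361 to 362 CPM in the others, and Psme2 at 237 CPM against 244 to 245 CPM. Psmg4 was at 152 CPM in GFP replicate 4 against 167 to 168 CPM. Psmd10 was at 0.685 CPM in GFP replicate 1 and at 0 in the other GFP libraries. For Psmc1, Psmd14, Psmf1, Psmg4 and Psme2 every Trim27 library still lay on the same side of every GFP library.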

How the results depend on the processing

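Of the 48 members, 16 kept direction and side of the threshold in all 21 settings tried, and 25 did so leaving aside the test for a fold above 1.5, under which 5 members rose and 13 fell (2452 of all tested genes fell). The like share of all tested genes was not computed for the 16 or the 25. The 25 include Psmd10, whose rise was built into its selection as a member. With library size as the only scaling 22 members rose, the medians were -0.34 for the constitutive 20S core, -0.56 for the immunoproteasome and 0.34 for the 19S particle, and the direction turned for the median of the ATPases (0.19), of all members (0.045), and for Psmb4 (0.093), Psmc5 (0.053), Psmd4 (0.11), Psmd5 (0.15), Psmd6 (0.036) and Psmd7 (0.12). Once the trend on length among abundant genes was removed, 18 members fell, the core median was -0.23 and the immunoproteasome median -0.64, and the direction turned for the median of the ATPases (0.067), of all members (0.0035), and for Psma7 (0.015), Psmb4 (0.13), Psmb6 (0.073), Psmc5 (0.036) and Psmd4 (0.081). With the length trend of all genes removed the core median was -0.48, and the direction turned for the median of the 19S particle (-0.23), its non-ATPase base (-0.23), lid (-0.18) and base chaperones (-0.060), and for Nfe2l1 (-0.42), Psma2 (-0.41), Psmc6 (-0.32), Psmd11 (-0.18), Psmd2 (-0.37), Psmd3 (-0.17), Psmd8 (-0.091) and Psmd9 (-0.060). A filter at 10 CPM, which tests fewer genes, left 3453 genes that rose and a core median of -0.56. The cause of the other differences was not tested. Leaving out single libraries, 10 to 12 members rose and 29 fell, the Psmb8 to Psmb5 difference ranged from 0.24 to 0.33 and that of Psmb10 to Psmb7 from -1.17 to -1.05, and genes without a call crossed 0 (Psma4 -0.0080 to 0.092, Psmb7 -0.042 to 0.026, Psmc6 -0.079 to 0.061, Psmd8 -0.018 to 0.050).

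Libraries with the same replicate number did not deviate together (correlations of -0.035 to 0.021, against -0.038 to 0.076 for other numbers). These correlations gave no sign of pairing by number but cannot exclude it, since a shared origin need not show in them. With the replicate block 11 members rose and 29 fell, the calls of Psmd2 and Nfe2l1 were lost, and the paired sign-flip test of the ratios (0.29 and -1.11) reached 2 of 16 sign patterns for both in the exact test, the smallest p that 4 pairs allow and above 0.05. A planned ratio of another immunoproteasome subunit was not run. Precision at low counts limits Psmd10 and Psma8 most.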
